A study of Mus musculus with 12 samples.

Results

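Cytosolic nucleic acid sensors are proteins that bind RNA or DNA where the cell does not normally carry it, or carry it in that form, and pass the signal on to interferon genes or to translation. They are described here in PER2::LUC mouse embryonic fibroblasts (strain C57 PER2::LUC, which carry a luciferase fusion of the clock protein PER2) treated with 3 compounds. Their expression was read from 10 genes selected by name, Ddx58 (named Rigi in recent annotations), Ifih1, Dhx58, Mavs, Eif2ak2, Adar, Zbp1, Sting1, Tlr3 and Trex1, of which 8 had a row among the 12591 genes of the expression table. All are called sensor genes below for short, although some encode adaptors (Mavs, Sting1), enzymes that act on nucleic acid (Adar, Trex1) or an endosomal receptor (Tlr3). The table keeps genes with at least 1 CPM (a read count scaled to the size of its library) in all samples, and Zbp1 and Trex1 were not analysed here. Since the genes were chosen with earlier results of these libraries known, their rise under DZ in particular, the counts of changed genes below describe these 8 genes and are no independent evidence of a direction.

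Confluent cells were given fresh medium for 24 h with 10 μM deazaneplanocin A (DZ, an inhibitor of AHCY, the enzyme that clears S-adenosylhomocysteine), 1 mM adenine or 1 mM S-adenosylmethionine (SAM, the methyl donor of the cell), and CTL dishes received neither DZ, adenine nor SAM. All 4 groups, CTL included, contained 3.3 mM HCl, and each group had 3 dishes of this cell population, so that p-values measure the spread between dishes. Polyadenylated RNA of each dish was sequenced, with 45649534 to 56789090 reads on the genes of the table per library, and the lowest count of any sensor gene in a library was 87 reads. The counts came from transcript coverage and are estimates. SAM replicate 3 stood apart from the other SAM dishes, as the chi-square of its counts per degree of freedom was 19.1 against SAM replicate 1 and 15.7 against SAM replicate 2, while all other pairs of replicates lay between 4.76 and 7.07. Results of SAM are therefore also given without it. Of 10 fibroblast markers, 8 were in the table, including Col1a1, Col1a2, Pdgfrb and Vim, whereas Dcn and Lum had no row. The sum of the 8 differed between groups. It was 21840 to 22280 CPM in CTL, 27670 to 28260 in DZ, 24220 to 26540 in adenine and 15860 to 17240 in SAM. In SAM only Fn1 had a lower mean than in CTL, at 11.99 against 13.56 log2 CPM. The means of all other fibroblast markers in the table were higher in SAM than in CTL. No marker of endothelium (0 of 4) or epithelium (0 of 4) had a row. Cd68, a lysosomal protein of macrophages that fibroblasts also make, was the only one of 11 leukocyte markers in the table, at 3.03 to 4.0 CPM in CTL, 2.74 to 3.79 in DZ, 10.8 to 12.4 in adenine and 15.6 to 17.7 in SAM. The Cd68 values of DZ overlapped with those of CTL, and those of adenine and SAM lay above them. Any part of leukocytes in the results of the 3 treatments was not tested. In such bulk samples, fewer cells of a type and less RNA per cell cannot be told apart.

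The RIG-I-like receptors are helicases that bind RNA in the cytosol. RIG-I (encoded by Ddx58) prefers short double-stranded RNA with a 5′ triphosphate, MDA5 (Ifih1) forms filaments on long double-stranded RNA, and LGP2 (Dhx58), which lacks the signalling domains of the other two, modulates them. RIG-I and MDA5 signal through MAVS on the mitochondrial outer membrane to the kinases TBK1 and IKKε, the factors IRF3 and NF-κB, and the interferon beta gene. PKR (Eif2ak2) is a kinase that halts translation when it binds double-stranded RNA, ADAR1 (Adar) deaminates adenosine in such RNA and thereby keeps self RNA from MDA5 and PKR, TLR3 reads double-stranded RNA in endosomes, and STING receives the cyclic dinucleotide made by the DNA sensor cGAS. ZBP1 binds Z-form nucleic acid, and TREX1 degrades cytosolic DNA. Many of these genes are themselves induced by interferon in fibroblasts, through response elements near their start sites.

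Because such elements are the known link between interferon and the sensor genes, the promoters were searched for 2 motifs in a window of 250 bases before and 50 bases after the canonical transcript start (GRCm39, GENCODE vM39), on both strands. The core of the interferon-stimulated response element (ISRE, GAAANNGAAA) was found in 442 of the 12574 windows searched over all genes (3.52%), and in 4 of the 8 sensor genes in the table: Ddx58, Ifih1, Dhx58 and Eif2ak2. The STAT dimer site (TTCNNNGAA, which reads the same on either strand) was found in 922 windows (7.33%) and in 3 of the 8 genes, Eif2ak2, Adar and Sting1. The ISRE cores of the 4 genes, with the 10 bases on either side, are shown because they carry the sequence these genes share, each read on the strand where the motif reads GAAANNGAAA and with the motif in capitals.
Ddx58, chr4:40239804-40239833, plus strand: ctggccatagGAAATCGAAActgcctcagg
Ifih1, chr2:62476548-62476577, minus strand: gaagagaatcGAAACAGAAAccgatctgtg
Dhx58, chr11:100595082-100595111, plus strand: ctctagaaatGAAACTGAAAcaaggggagg
Eif2ak2, chr17:79189964-79189993, minus strand: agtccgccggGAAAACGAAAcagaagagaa
The 2 bases in the middle of the motif differ in all 4 genes. The STAT sites of Eif2ak2 and Adar are shown in the same way, with TTCNNNGAA in capitals, for comparison with the ISRE cores.
Eif2ak2, chr17:79190161-79190189, minus strand: ctgcagagctTTCCCAGAAtggaagccag
Adar, chr3:89638037-89638065, plus strand: gggaagccttTTCAAGGAAacgaaagtga

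All 4 ISRE cores lay close to the transcript start, with the first transcribed base counted as +1. They covered bases -4 to +6 in Dhx58, +12 to +21 in Ddx58, +30 to +39 in Eif2ak2 and +41 to +50 in Ifih1, on the antisense strand in Dhx58 and Ddx58 and on the sense strand in Eif2ak2 and Ifih1. The STAT sites lay at -167 to -159 in Eif2ak2, +5 to +13 in Adar and -39 to -31 in Sting1. No exact ISRE core was found in the windows of Mavs, Adar, Sting1 or Tlr3, and neither motif in those of Mavs and Tlr3. The Adar sequence shown above holds GAAA repeats parted by 1 base, a spacing that the exact motif does not match. Only canonical starts were searched. The annotations of Adar, Mavs, Tlr3 and Trex1 reach further upstream than these windows, and their upstream starts were not searched. Of the members without a row, the window of Zbp1 held 4 ISRE matches and 2 STAT sites, and that of Trex1 held none. A match describes letters in a window and not a bound site.

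**Figure D1:**
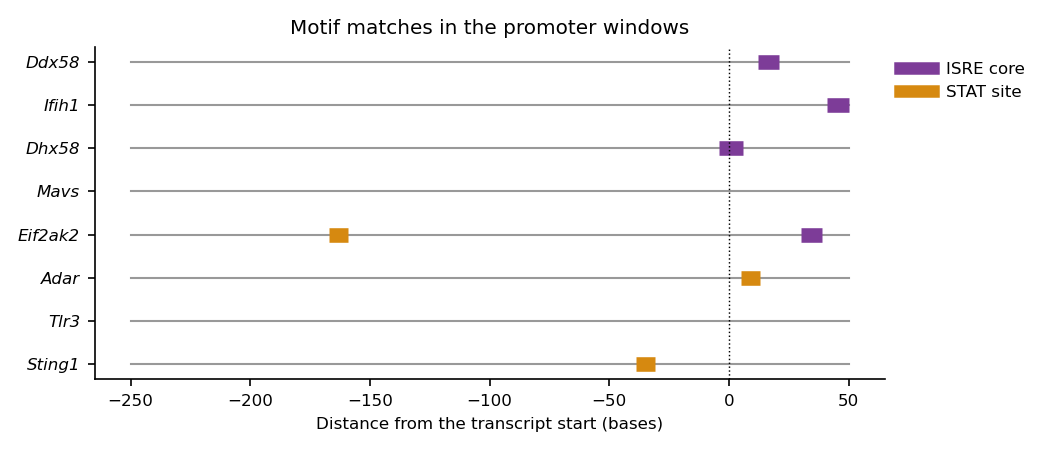
Positions of ISRE core and STAT site matches (coloured blocks) in the promoter window of each gene (grey line), by distance from the transcript start in bases, with the start at the dotted line. ISRE cores are seen in Ddx58, Ifih1, Dhx58 and Eif2ak2, all between -4 and +50.

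Under DZ, 6 of the 8 genes were higher than in CTL at a Benjamini-Hochberg FDR under 0.01 in the limma model (22.6% of all 12591 genes were higher), 1 was lower (23.4% of all genes were lower), and Sting1 did not pass. The 6 were the 3 RIG-I-like receptors, Eif2ak2, Adar and Tlr3, with rises from 1.55-fold for Adar to 4.96-fold for Dhx58, and Mavs was the one that fell. The median log2 fold change of the 8 genes was 1.11, against -0.0057 over all genes. In none of the 7 called genes did a DZ dish overlap with a CTL dish. The share of all genes without such an overlap was not computed, so this describes the dishes only.

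Ddx58 (chr4:40203772-40239852) had log2 CPM values of 5.16, 5.15 and 5.12 in the 3 CTL dishes, 6.70, 6.85 and 6.75 in DZ, 4.94, 4.89 and 4.95 in adenine, and 5.21, 5.17 and 5.11 in SAM. DZ stood apart from all other dishes, adenine lay just below CTL without overlap, and SAM overlapped with CTL. The log2 fold change of DZ over CTL was 1.62 (standard error 0.0434), a 3.08-fold rise (limma, adjusted p = 7.86e-13). Adenine lowered Ddx58 by 13.9%, a log2 fold change of -0.22 (limma, adjusted p = 3.75e-04). SAM had a log2 fold change of 0.02 (95% confidence interval -0.07 to 0.12), which did not pass (limma, adjusted p = 0.642). With plain read totals in place of the authors' scaling, the SAM value was 0.145 and passed (limma, adjusted p = 0.00646).

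Ifih1 (chr2:62425714-62476607) had log2 CPM values of 3.28, 3.37 and 3.16 in CTL, 4.71, 4.94 and 4.76 in DZ, 2.85, 2.77 and 2.84 in adenine, and 3.20, 2.99 and 3.18 in SAM. As with Ddx58, every DZ dish lay above and every adenine dish below all CTL dishes, and SAM overlapped with CTL. It rose 2.89-fold under DZ, a log2 fold change of 1.53 (standard error 0.0821, limma, adjusted p = 1.01e-09). Under adenine it fell by 26.9%, a log2 fold change of -0.45 (limma, adjusted p = 1.51e-04), the larger of the falls in the 2 receptors that signal. The value for SAM was -0.15 (95% confidence interval -0.32 to 0.03, limma, adjusted p = 0.119), and it passed only with quantile normalization, at -0.254 (limma, adjusted p = 0.00972).

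Dhx58 (chr11:100585710-100595097) was the lowest of the 3 receptors in reads, with log2 CPM values of 1.01, 1.11 and 1.53 in CTL, 3.48, 3.74 and 3.35 in DZ, 1.10, 0.75 and 1.20 in adenine, and 2.21, 2.33 and 2.12 in SAM. DZ and SAM were both above CTL in every dish, DZ further than SAM, and adenine overlapped with CTL. The rise under DZ was 4.96-fold, a log2 fold change of 2.31 (standard error 0.154, limma, adjusted p = 9.12e-09). Dhx58 also rose under SAM, 2.01-fold or 1.00 on the log2 scale (limma, adjusted p = 2.27e-05), unlike Ddx58 and Ifih1. Under adenine the log2 fold change was -0.20 (95% confidence interval -0.53 to 0.13, limma, adjusted p = 0.261). These values rest on 87 to 130 reads per library in CTL and 91 to 114 in adenine.

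Mavs (chr2:131075442-131096740), the adaptor of RIG-I and MDA5, had log2 CPM values of 5.51, 5.43 and 5.41 in CTL, 5.22, 5.25 and 5.22 in DZ, 5.39, 5.38 and 5.41 in adenine, and 5.58, 5.56 and 5.59 in SAM. DZ was the lowest group and SAM the highest, and neither overlapped with CTL, although the whole range was narrow. Under DZ it fell by 14.2%, a log2 fold change of -0.22 (standard error 0.0367, limma, adjusted p = 1.19e-04). Under SAM it was 0.13 higher on the log2 scale (limma, adjusted p = 0.00517), a call that was lost with median centring (0.0888), with quantile normalization (0.0984), with only the 2 groups in the fit (0.128), and when SAM replicate 1 (0.127) or 3 (0.120) or CTL replicate 2 (0.119) or 3 (0.108) was left out. Under adenine the value was -0.06 (95% confidence interval -0.13 to 0.02, limma, adjusted p = 0.187).

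**Figure D2:**
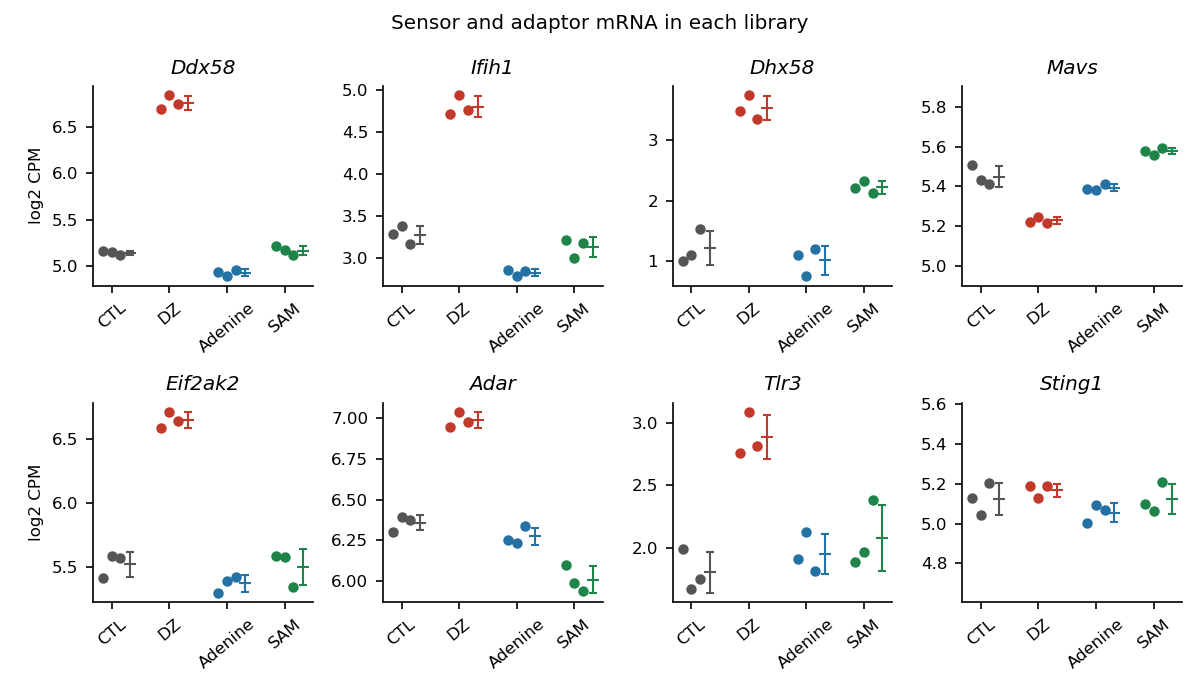
Deposited log2 CPM of each of the 8 genes in each library (points, 3 dishes per group) with the group mean and SD (bar beside the points). Each panel has its own vertical axis. DZ dishes lie above all other dishes in Ddx58, Ifih1, Dhx58, Eif2ak2, Adar and Tlr3, below them in Mavs, and overlap with CTL in Sting1.

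The 2 double-stranded RNA effectors both rose under DZ. Eif2ak2 (chr17:79159972-79190012) had log2 CPM values of 5.41, 5.58 and 5.56 in CTL, 6.59, 6.72 and 6.64 in DZ, 5.29, 5.39 and 5.42 in adenine, and 5.58, 5.57 and 5.34 in SAM. DZ was apart from the other groups, which overlapped with each other. The rise was 2.19-fold, a log2 fold change of 1.13 (standard error 0.0647, limma, adjusted p = 1.89e-09). Neither adenine (-0.15, 95% confidence interval -0.29 to -0.01, limma, adjusted p = 0.0525) nor SAM (-0.02, interval -0.16 to 0.12, limma, adjusted p = 0.785) passed. Eif2ak2 overlaps with Gpatch11 on the opposite strand, and the strand setting used in counting is not given in the sources used here. Gpatch11 had a log2 fold change of 0.08 under DZ (limma, adjusted p = 0.279).

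Adar (chr3:89622329-89660753) had log2 CPM values of 6.30, 6.39 and 6.38 in CTL, 6.94, 7.04 and 6.98 in DZ, 6.25, 6.24 and 6.33 in adenine, and 6.10, 5.99 and 5.94 in SAM. It was the only one of the 8 genes that was called higher in DZ and lower in SAM, with every dish of both treatments beyond the CTL range. It rose 1.55-fold under DZ, a log2 fold change of 0.63 (standard error 0.0444, limma, adjusted p = 1.72e-08). Under SAM it fell by 21.5%, a log2 fold change of -0.35 (limma, adjusted p = 3.06e-06). Adenine was -0.08 (95% confidence interval -0.18 to 0.01, limma, adjusted p = 0.102). Reads of the interferon-inducible long form of ADAR1 and the constitutive short form are summed in these gene values and were not told apart.

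Tlr3 (chr8:45848702-45864117), the endosomal receptor, had log2 CPM values of 1.99, 1.68 and 1.75 in CTL, 2.76, 3.09 and 2.81 in DZ, 1.91, 2.13 and 1.82 in adenine, and 1.89, 1.97 and 2.38 in SAM. Only DZ lay clear of CTL, and SAM replicate 3 was well above the other SAM dishes. The rise under DZ was 2.11-fold, a log2 fold change of 1.08 (standard error 0.142, limma, adjusted p = 1.23e-05). Adenine (0.15, limma, adjusted p = 0.372) and SAM (0.27, 95% confidence interval -0.03 to 0.58, limma, adjusted p = 0.0937) did not pass. These values rest on 151 to 418 reads per library.

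Sting1 (chr18:35866732-35873607), the adaptor of the DNA pathway, was the one gene of the 8 not called in any of the 6 comparisons. Its log2 CPM values were 5.13, 5.04 and 5.20 in CTL, 5.19, 5.13 and 5.19 in DZ, 5.0, 5.09 and 5.07 in adenine, and 5.10, 5.07 and 5.21 in SAM. All treatments overlapped with CTL. The log2 fold change was 0.04 for DZ (95% confidence interval -0.07 to 0.15, limma, adjusted p = 0.483), -0.07 for adenine (interval -0.18 to 0.04, limma, adjusted p = 0.246) and below 0.01 for SAM (interval -0.11 to 0.11, limma, adjusted p = 0.997). Its 1541 to 2032 reads per library gave intervals nearly as narrow as those of Ddx58 and Mavs, so that changes of the size seen in the RIG-I-like receptors under DZ lay outside them.

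Adenine left most of the 8 genes near CTL. None was called higher (30.6% of all genes were higher), and 2, Ddx58 and Ifih1, were called lower (31.0% of all genes were lower). The median log2 fold change of the 8 genes was -0.12, against -0.003 over all genes. Under SAM, 2 genes were higher, Dhx58 and Mavs (33.7% of all genes were higher), and 1 was lower, Adar (35.7% of all genes were lower), with a median of 0.01 against -0.02 over all genes. Without SAM replicate 3, Dhx58 had a log2 fold change of 1.05 (limma, adjusted p = 5.08e-05) and Adar of -0.314 (limma, adjusted p = 8.91e-06), and Mavs was no longer called. The values that did not pass were then 0.0488 for Ddx58, -0.171 for Ifih1, 0.0598 for Eif2ak2, -0.0431 for Sting1 and 0.120 for Tlr3. These shares are no larger than those of the table as a whole. The 3 treatments were compared with the same CTL dishes.

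**Figure D3:**
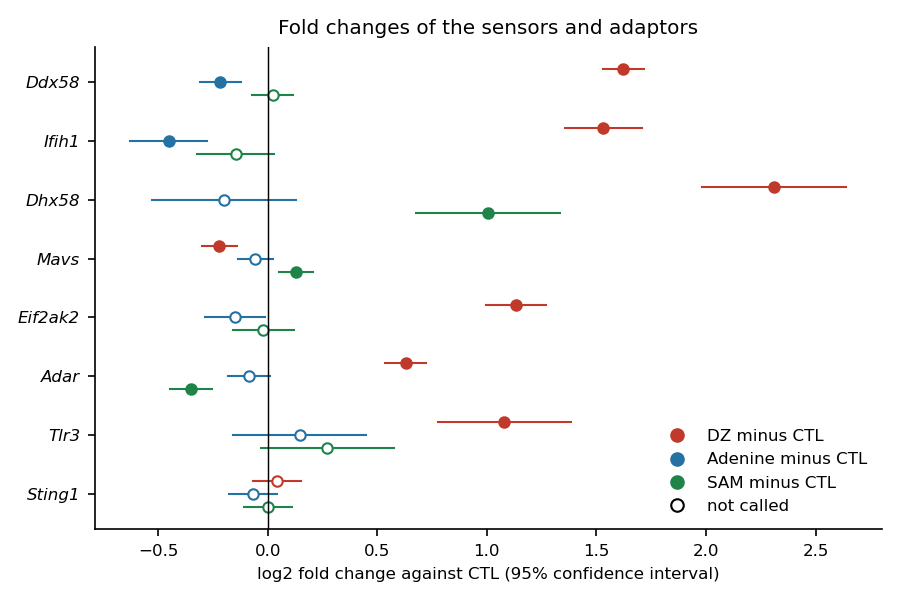
Log2 fold change of each gene in DZ, adenine and SAM minus CTL (points) with the 95% confidence interval (lines) from the limma model, with open points for genes not called at an FDR under 0.01. The DZ points of Dhx58, Ddx58, Ifih1, Eif2ak2 and Tlr3 lie above 1, while adenine and SAM points lie between -0.45 and 0.27 except Dhx58 under SAM at 1.00.

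The treatments were also compared directly, with the doses differing between DZ (10 μM) and the metabolites (1 mM). Between DZ and adenine, 7 of the 8 genes differed (64.3% of all genes differed), 6 higher in DZ and Mavs lower. The largest log2 difference was that of Dhx58 at 2.51, followed by Ifih1 at 1.98 and Ddx58 at 1.84. Between DZ and SAM, 7 of the 8 genes differed as well (69.0% of all genes), and again only Mavs was lower in DZ, by 0.35 on the log2 scale. Here Ifih1 led with 1.68, before Ddx58 with 1.60 and Dhx58 with 1.31. Without SAM replicate 3 the same number of genes, 7, was called, with 1.70 for Ifih1, 1.57 for Ddx58, 1.26 for Dhx58 and -0.340 for Mavs. Adar had a larger value between DZ and SAM (0.98) than between DZ and CTL (0.63), which follows from its fall under SAM.

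SAM and adenine were given at the same dose and time. Of the 8 genes, 5 differed between them (42.7% of all genes differed). Dhx58 was 2.30-fold higher in SAM than in adenine, a log2 difference of 1.20 (limma, adjusted p = 1.07e-05). Ddx58 was higher in SAM by 0.24 (limma, adjusted p = 2.82e-04) and Mavs by 0.18 (limma, adjusted p = 6.20e-04), whereas Adar was lower in SAM by a log2 difference of -0.27 (limma, adjusted p = 1.38e-04). Ifih1 was higher in SAM by 0.31 (limma, adjusted p = 0.0054), a call that was lost with voom on recovered reads, with only the 2 groups in the fit, without SAM replicate 1 or 3, and without any single adenine replicate. Eif2ak2 (0.13, 95% confidence interval -0.01 to 0.27), Sting1 (0.07, interval -0.04 to 0.18) and Tlr3 (0.13, interval -0.18 to 0.43) did not pass, although without SAM replicate 3 Eif2ak2 was 0.208 higher and passed (limma, adjusted p = 0.00497). Without that dish the value was 1.25 for Dhx58, 0.265 for Ddx58, 0.176 for Mavs and -0.229 for Adar, all called, and -0.0256 for Tlr3.

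To compare levels between genes, CPM was divided by the length of the union of annotated exons (CPM per kb). This union ran from 3189 bp for Sting1 to 11372 bp for Mavs, and it can be longer than the transcript the cells make. The order of the genes and the ratios between them therefore depend on the annotation. In CTL the order was Sting1 (10.9 ± 0.6 CPM per kb, SD, n = 3), Adar (10.1 ± 0.334), Eif2ak2 (8.43 ± 0.546), Ddx58 (4.18 ± 0.0571), Mavs (3.84 ± 0.137), Ifih1 (1.07 ± 0.0802), Dhx58 (0.685 ± 0.14) and Tlr3 (0.650 ± 0.0767). Sting1 and Adar overlapped, as did Dhx58 and Tlr3, and all other neighbours were apart. In DZ the order became Eif2ak2 (18.5 ± 0.806), Adar (15.6 ± 0.529), Ddx58 (12.9 ± 0.68), Sting1 (11.3 ± 0.261), Dhx58 (3.42 ± 0.484), Mavs (3.30 ± 0.0382), Ifih1 (3.11 ± 0.265) and Tlr3 (1.38 ± 0.176), in which Dhx58, Mavs and Ifih1 overlapped with their neighbours. Sting1 thus passed from the first place to the fourth without a called change of its own.

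In adenine and SAM the order stayed near that of CTL. Sting1 was first in both (10.4 ± 0.335 CPM per kb in adenine and 10.9 ± 0.588 in SAM, SD, n = 3). In adenine, Mavs (3.69 ± 0.0448) and Ddx58 (3.60 ± 0.089) overlapped, as did Ifih1 (0.781 ± 0.0216), Tlr3 (0.720 ± 0.0815) and Dhx58 (0.593 ± 0.0961). In SAM, Eif2ak2 (8.33 ± 0.777) overlapped with Adar (7.92 ± 0.458), and Dhx58 (1.37 ± 0.0985) stood above Ifih1 (0.968 ± 0.0755) without overlap. The 3 receptors together had 5.93 ± 0.0433 CPM per kb in CTL, 19.4 ± 1.38 in DZ, 4.97 ± 0.205 in adenine and 6.58 ± 0.197 in SAM.

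**Figure D4:**
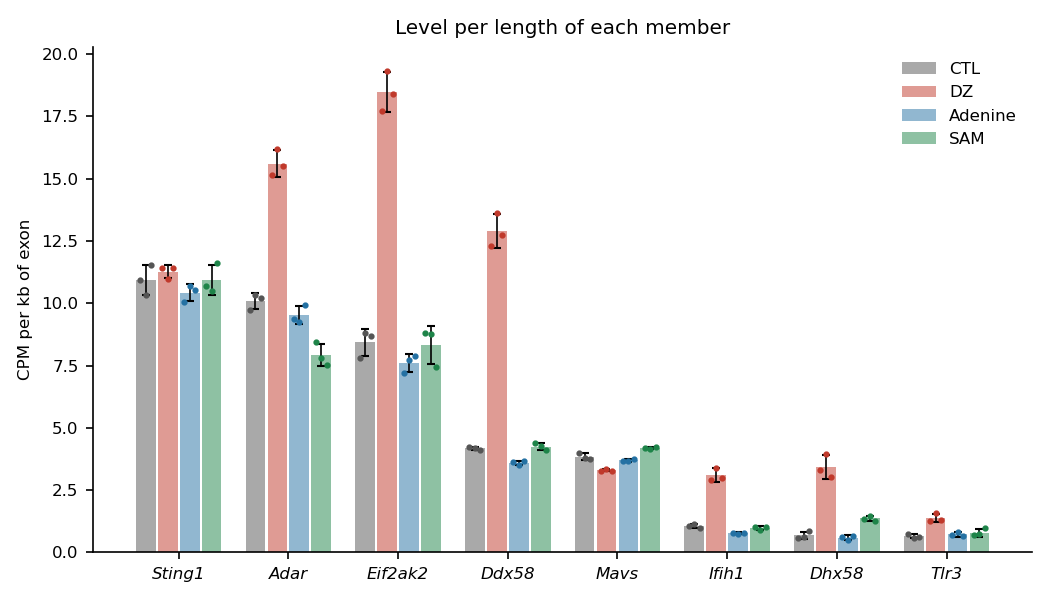
Level of each gene in CPM per kb of exon by group (bars, mean of 3 dishes, error bars SD, points single dishes), ordered by the CTL mean. Eif2ak2, Adar and Ddx58 pass Sting1 in DZ (18.5, 15.6 and 12.9 against 11.3 CPM per kb).

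Transcripts of Ddx58 and Mavs were near parity per length in CTL, at a ratio of 1.09 ± 0.027 (SD, n = 3), in adenine (0.974 ± 0.0158) and in SAM (1.01 ± 0.0417), and stood at 3.91 ± 0.164 in DZ. The ratio of Ifih1 to Dhx58 was 1.62 ± 0.385 in CTL, 0.913 ± 0.0715 in DZ, 1.34 ± 0.196 in adenine and 0.711 ± 0.0995 in SAM. The ratio of Ddx58 to Ifih1 was 3.91 ± 0.256 in CTL, 4.16 ± 0.136 in DZ, 4.61 ± 0.0456 in adenine and 4.40 ± 0.381 in SAM. These ratios were not tested. Their size, near parity included, depends on the annotated exon lengths, which were the same for all groups.

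Over the 12 libraries, genes whose log2 values closely followed Ddx58 were Irgm2 (Pearson r = 0.997), Parp10 (0.996), Irgm1 (0.994) and Rtp4 (0.992). Those of Ifih1 were F730043M19Rik (0.992), Lgals3bp (0.991), Apol9a (0.991), Ddx58 itself (0.990) and Isg15 (0.990). For Dhx58 the likeness was weaker, with Lipa (0.983), Parp14 (0.981), Gvin1 (0.974), Gvin2 (0.973) and Stat2 (0.973). Stat2 encodes a factor that carries the interferon signal to the ISRE, and Isg15 a ubiquitin-like protein induced by it. The libraries share their groups and scaling, and 3 of them are DZ dishes that lie far from the rest, so these values are a description of likeness only. Reads of Gvin1 and Gvin2, which are paralogs, and of Apol9a could have been shared with near copies.

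Of the 154 further genes in 9 lists around the sensors, 102 had a row. DZ raised 42 of them (41.2%, against 22.6% of all genes) and lowered 20 (19.6%, against 23.4%). Adenine raised 30 (29.4%, against 30.6%) and lowered 30 (29.4%, against 31.0%), and SAM raised 40 (39.2%, against 33.7%) and lowered 29 (28.4%, against 35.7%). Their median log2 fold changes were 0.09, 0.04 and 0.03, respectively. These are medians of signed values, in which rises and falls offset each other, and they do not give the size of the changes. The lists were chosen with earlier results of these libraries known. The shares given here and for each list below therefore describe the listed genes and are no independent evidence of a direction. Interferons themselves were not in the table (0 of 21 names, among them Ifnb1, the interferon alpha genes, Ifne, Ifnl2, Ifnl3 and Ifng), and their levels were not analysed here.

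**Figure D5:**
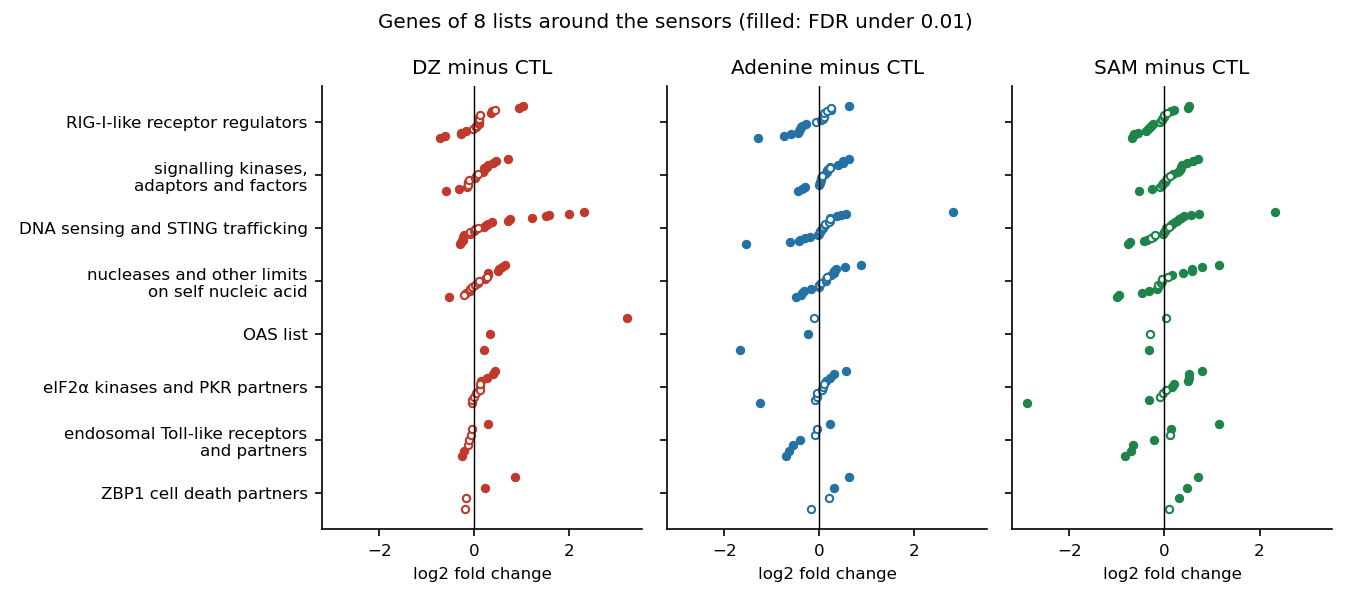
Log2 fold changes of the genes of 8 lists around the sensors in DZ, adenine and SAM minus CTL, 1 point per gene, filled where the gene was called at an FDR under 0.01 and sorted within each list. Most points lie within 1 of 0, and single genes stand far out, such as Oasl2 under DZ (3.22), Enpp1 under adenine (2.80) and Ppp1r15a under SAM (-2.90).

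Among regulators of the RIG-I-like receptors, 5 of 19 genes were called higher and 5 lower under DZ (26.3% each, against 22.6% and 23.4% of all genes). Adenine raised 3 (15.8%, against 30.6%) and lowered 9 (47.4%, against 31.0%), and SAM raised 4 (21.1%, against 33.7%) and lowered 9 (47.4%, against 35.7%). Trim25, a ubiquitin ligase that activates RIG-I, rose by 0.94 on the log2 scale under DZ and changed by -0.40 under adenine, and it was at -0.01 under SAM without a call. Zc3hav1, the zinc finger antiviral protein and a partner of RIG-I, was higher under DZ (0.38) and lower under adenine (-0.74) and SAM (-0.67). Prkra, encoding the PKR activator PACT, was lower under DZ (-0.62) and adenine (-0.39). Pcbp2, which promotes turnover of MAVS, was lower under all 3 treatments (-0.29, -0.43 and -0.34). Dhx36, an RNA helicase that works with PKR, was lower under adenine (-0.37) and SAM (-0.68), as were Riok3 (-0.45 and -0.57) and Aup1 (-0.60 and -0.25).

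Of the kinases, adaptors and transcription factors downstream, 8 of 18 were called higher with DZ (44.4%, against 22.6% of all genes) and 4 lower (22.2%, against 23.4%). With adenine 8 were higher (44.4%, against 30.6%) and 3 lower (16.7%, against 31.0%), and with SAM 9 were higher (50%, against 33.7%) and 2 lower (11.1%, against 35.7%). Changes were modest. Fadd, a death domain adaptor, rose by 0.71 on the log2 scale under DZ, and Traf2, a ubiquitin ligase of the same complexes, by 0.46 under DZ, 0.15 under adenine and 0.35 under SAM. Ikbkg, the regulatory subunit NEMO, was lower under DZ (-0.59) and adenine (-0.36). Nfkb1, an NF-κB subunit, was higher under adenine (0.50) and SAM (0.61). Tbk1, the kinase that phosphorylates IRF3, was lower under DZ (-0.14) and higher under adenine (0.16) and SAM (0.37). Ikbkb, a kinase of the NF-κB inhibitor, was lower under DZ (-0.12), adenine (-0.30) and SAM (-0.27).

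Among genes of DNA sensing and STING trafficking, DZ raised 11 of 23 (47.8%, against 22.6% of all genes) and lowered 7 (30.4%, against 23.4%). Adenine raised 6 and lowered 6 (26.1% each, against 30.6% and 31.0%), and SAM raised 10 (43.5%, against 33.7%) and lowered 5 (21.7%, against 35.7%). The largest rises under DZ that the naming rule picked were in the Ifi200 cluster of interferon-inducible DNA-binding proteins. Ifi207 had log2 fold changes of 2.31 under DZ, -1.55 under adenine and -0.77 under SAM, and Ifi204 of 1.50, -0.63 and -0.72. Ifi211 was also higher under DZ (1.22) and lower under adenine (-0.31) and SAM (-0.24). These genes are near copies of each other, and reads could have been shared between them. Enpp1, the enzyme that hydrolyses the STING ligand cGAMP outside the cell, rose by 2.80 under adenine (standard error 0.0668, limma, adjusted p = 2.98e-14). It rose by 2.32 under SAM (limma, adjusted p = 7.30e-14) and by 0.24 under DZ. Sar1a, a GTPase of export from the endoplasmic reticulum, was higher under DZ (0.20), adenine (0.37) and SAM (0.41), and Zdhhc1 was lower under all 3 treatments (-0.22, -0.40 and -0.43).

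Among nucleases and other limits on self nucleic acid, 7 of 17 were called higher (41.2%, against 22.6% of all genes) and 2 lower (11.8%, against 23.4%) under DZ. Under adenine 6 were higher (35.3%, against 30.6%) and 5 lower (29.4%, against 31.0%), and under SAM 6 were higher and 6 lower (35.3% each, against 33.7% and 35.7%). Samhd1, which removes deoxynucleotides, was higher under DZ (0.51), adenine (0.36) and SAM (0.58). Pnpt1, the mitochondrial RNA exonuclease PNPase, was higher under DZ (0.59) and lower under adenine (-0.33) and SAM (-0.15). Dcp2, the mRNA decapping enzyme, was higher under DZ (0.64). Adarb1, the second editing enzyme ADAR2, rose under adenine (0.87) and also under SAM (0.79), where Adar fell. Rnaseh2c, a subunit of the RNase H2 complex, rose by 0.28 under DZ, 0.53 under adenine and 1.14 under SAM. Rnaset2b was higher under DZ (0.22) and lower under adenine (-0.50) and SAM (-0.95), with reads that could have been shared with its copy Rnaset2a.

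The oligoadenylate synthetase list had 3 of its 11 genes in the table, and Oas1a, Oas2 and Oas3 were among those without a row. Oasl2, a synthetase-like protein that supports RIG-I-like signalling, was 3.22 higher on the log2 scale under DZ (standard error 0.115, limma, adjusted p = 1.22e-11), a larger difference than that of any of the 8 sensor genes. It was lower under adenine (-1.68, limma, adjusted p = 2.87e-09) and at -0.31 without a call under SAM. Abce1, a protein of ribosome recycling, was higher under DZ (0.21) and lower under adenine (-0.24) and SAM (-0.33), and Pde12, which degrades the second messenger of the pathway, was higher under DZ (0.33).

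PKR shares its substrate eIF2α with other kinases. In the list of these kinases and PKR partners, DZ raised 5 of 11 genes (45.5%, against 22.6% of all genes) and lowered 0 (against 23.4%). Adenine raised 4 (36.4%, against 30.6%) and lowered 1 (9.09%, against 31.0%), and SAM raised 6 (54.5%, against 33.7%) and lowered 2 (18.2%, against 35.7%). Ppp1r15a, the stress-induced subunit GADD34 of the phosphatase that acts against PKR, was slightly higher under DZ (0.14) and lower under the other two, with a log2 fold change of -1.25 under adenine (limma, adjusted p = 5.21e-13) and -2.90 under SAM (limma, adjusted p = 2.55e-17). Eif2ak3 (PERK) and Eif2ak4 (GCN2) were both higher under adenine (0.31 and 0.22) and under SAM (0.52 and 0.52). Ilf2, a subunit of a complex that binds double-stranded RNA, was higher under DZ (0.44), adenine (0.56) and SAM (0.79). Eif2s1, encoding eIF2α itself, was higher under DZ (0.39), and Ppp1r15b was higher under DZ (0.26) and lower under SAM (-0.33).

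Of the endosomal receptors other than Tlr3, Tlr7, Tlr8, Tlr9 and Tlr13 had no row. Of the 7 partner genes in the table, 1 was called higher (14.3%, against 22.6% of all genes) and 2 lower (28.6%, against 23.4%) under DZ. Under adenine 1 was higher (14.3%, against 30.6%) and 4 lower (57.1%, against 31.0%), and under SAM 2 were higher (28.6%, against 33.7%) and 4 lower (57.1%, against 35.7%). Ticam1, the adaptor TRIF through which TLR3 signals, was lower under DZ (-0.26), adenine (-0.42) and SAM (-0.83). Myd88, the adaptor of the other endosomal receptors, was higher under DZ (0.29) and lower under adenine (-0.70) and SAM (-0.66). Irak4, the kinase that follows MYD88, was lower under adenine (-0.55) and SAM (-0.70), and Cnpy3, a chaperone of Toll-like receptors, was lower under DZ (-0.21).

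Zbp1 itself had no row, and 4 of its 10 cell death partners did, Mlkl, Casp8, Casp6 and Cflar, whereas Ripk3 did not. DZ raised 2 of the 4 (50%, against 22.6% of all genes), adenine raised 2 (50%, against 30.6%) and SAM raised 3 (75.0%, against 33.7%), and 0 were called lower. Mlkl, the pore-forming protein of necroptosis, rose by 0.86 on the log2 scale under DZ and 0.48 under SAM. Casp8, the protease that holds necroptosis back, was higher under DZ (0.22), adenine (0.63) and SAM (0.70). Cflar was higher under adenine (0.32) and Casp6 under SAM (0.31).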

How the data were processed

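RNA of 12 dishes in 4 groups was sequenced as stranded, paired-end poly(A) libraries. According to the methods and the submitters' processing notes, the authors trimmed reads with Trimmomatic, aligned them to GRCm39 guided by GENCODE vM27 with HISAT2, quantified transcripts with StringTie and ran edgeR on genes reaching 1 CPM in every sample. Versions and the method of the scaling factors are not given in the sources used here. The deposited table holds log2 CPM on the authors' normalized library sizes for 12591 genes, with a prior count of 2. Since these values are not counts, they were tested with limma 3.58.1 in R 4.3.3 (lmFit, contrasts, eBayes with a variance trend) in a single model of all 12 libraries, with Benjamini-Hochberg adjustment over all genes and an FDR of 0.01. The model was tested on simulated data. Fold changes are differences of mean log2 values, which slightly understate changes of low genes because of the prior count.

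Whole reads were recovered from the deposited values to give depth, 45649534 to 56789090 reads per library on the listed genes. Replicates differed by more than counting noise (chi-square per degree of freedom 4.76 to 7.07, and 15.7 and 19.1 for the pairs with SAM replicate 3), so none was a duplicate. Plain read totals moved the median over all genes, on the log2 scale, to 0.11 for SAM, 0.06 for adenine and 0.02 for DZ. Exon lengths, positions and starts come from GENCODE vM39 (12575 identifiers matched). Python 3.11.15 with pandas 2.3.3, numpy 2.4.6, pysam 0.24.0 and matplotlib 3.10.9 was used for tables, promoters and plots. No protein table was used.

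The members and lists were chosen with earlier results of these data known. Named genes are every member in the table, from each list up to 3 called genes per treatment with the smallest adjusted p, and the 5 genes most like Ddx58, Ifih1 and Dhx58 by Pearson r. Some genes that these rules cover are not reported here. Interferons and cell type markers are named whether or not called. Alternatives were robust empirical Bayes, a fit with no variance trend, an FDR of 0.05, a required log2 fold change of 0.5, a filter at a mean of 3 log2 CPM, median centring, quantile normalization, plain read totals, a pseudocount of 1 CPM, voom on recovered reads, only the 2 groups compared, a replicate block and leaving out each library.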

Additional observations from a re-analysis of the deposited data

How the results depend on the processing

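Under the 12 alternatives, 5 to 7 of the 8 sensor genes were called between DZ and CTL, 0 to 2 between adenine and CTL, and 1 to 4 between SAM and CTL, with 7, 2 and 2 to 3 when single libraries were left out. The directions of the 7 DZ calls held under all of these, though Dhx58 and Tlr3 were not tested under the filter at a mean of 3 log2 CPM. A required log2 fold change of 0.5 left 0 sensor genes for adenine against CTL, 1 for SAM against CTL and 1 for SAM against adenine, and of the other pathway genes 20 for DZ, 18 for adenine and 28 for SAM against CTL, 28 for DZ against adenine, 44 for DZ against SAM and 8 for SAM against adenine. The values that changed sign belonged to genes not called. Plain read totals gave 0.0057 for Mavs under adenine, 0.102 for Eif2ak2 under SAM and -0.0536 for Sting1 between DZ and SAM. Under SAM, Ddx58 was -0.0163 with median centring and -0.011 with quantile normalization, and Sting1 was -0.0388 with median centring, -0.0412 with quantile normalization and -0.0017 with voom. Leaving out single libraries gave -0.0015 to 0.0488 for Ddx58, -0.0749 to 0.0598 for Eif2ak2 and -0.0431 to 0.0393 for Sting1 under SAM, and -0.0256 to 0.221 for Tlr3 between SAM and adenine. The cause was not tested. The residuals of dishes sharing a replicate number had correlations over genes of -0.142 to 0.181, so these dishes shared no strong deviation. A weaker pairing by number cannot be told from 3 dishes per group. With the replicate block, 7 sensor genes were called for DZ, 2 for adenine and 3 for SAM against CTL, and 62, 60 and 69 other pathway genes, as without it. Shares of all genes were not computed under the alternatives. The counts of this section therefore describe the sensor and list genes only and are not compared with the table as a whole. Dhx58 and Tlr3 have the fewest reads, and their confidence intervals were the widest of the 8 genes.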
